A study of Mus musculus with 2 samples.

Results

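MiR-21a-5p, miR-155-5p, miR-146a-5p and miR-146b-5p are 4 of the 739 rows of a mouse microRNA array, taken by their miRBase mature-sequence accessions MIMAT0000530, MIMAT0000165, MIMAT0000158 and MIMAT0003475. They were compared between Pam212, a spontaneously transformed epidermal keratinocyte line of Balb/c origin that does not metastasise, and LY-1, a metastatic line derived from Pam212. Neither line was treated, and both were grown to confluency in medium with serum. A single plate of each line was used and each line has 1 array, so every value below is a single measurement with no replicate error, and no difference could be tested. The comparison asks how the miRNAs of a metastatic keratinocyte line stand against those of the transformed line it came from.

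MicroRNAs are short RNAs that repress messenger RNAs carrying a match to the seed, the bases near the 5′ end of the miRNA. The 4 miRNAs are known from other work as products of genes switched on by AP-1 or NF-κB, transcription factors that respond to growth signals and to inflammation. MiR-21 is raised in many carcinomas and lowers Pdcd4, a tumour suppressor. MiR-155 comes from the BIC transcript, is raised in activated immune cells and many tumours, and lowers Socs1, an inhibitor of cytokine signalling. MiR-146a and miR-146b act in a feedback loop: NF-κB raises miR-146a, which lowers Traf6 and Irak1, signalling proteins upstream of NF-κB.

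The mature sequences are shown because the seed groups the 4 miRNAs and because the likeness of miR-146a-5p and miR-146b-5p bears on how their probes are read. They are RefSeq sequences on mouse build GRCm38.p6, matched by miRNA name for all 4, with the seed, bases 2 to 8, in capitals.
miR-21a-5p: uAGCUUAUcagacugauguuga
miR-155-5p: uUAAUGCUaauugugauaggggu
miR-146a-5p: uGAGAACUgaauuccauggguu
miR-146b-5p: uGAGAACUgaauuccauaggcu
The 4 miRNAs carry 3 seeds, since miR-146a-5p and miR-146b-5p share GAGAACU and would pair with the same site, AGUUCUC. The seed match is AUAAGCU for miR-21a-5p and AGCAUUA for miR-155-5p. Among the 1738 mature entries of the RefSeq table, no other entry has the seed of miR-155-5p, and 1 other, miR-21c, has that of miR-21a-5p.

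MiR-146a-5p and miR-146b-5p are both 22 bases long and identical at 20 positions, including the first 17. Counted from the 5′ end, the changes from miR-146a-5p to miR-146b-5p are G18A and U21C. How far each of these 2 probes binds the other miRNA was not tested. MiR-21c, shown as the sole other carrier of a member's seed, matches miR-21a-5p over the first 15 bases and differs at 5 of the 21 positions they share.
miR-21c: uAGCUUAUcagacugguacaa
All 4 members are low in G and C, at 36.4% for miR-21a-5p, 34.8% for miR-155-5p and 40.9% for each miR-146, where the median mature entry has 52.2%.

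The 4 miRNAs come from separate genes. The mature miR-21a-5p lies at chr11:86584120-86584141 on the minus strand, in the hairpin gene Mir21a, which falls within the bounds of the protein-coding gene Vmp1. The mature miR-155-5p lies at chr16:84714143-84714165 on the plus strand, in Mir155, within the bounds of the long non-coding RNA gene Mir155hg, the BIC host transcript. MiR-146a-5p is at chr11:43374435-43374456 on the minus strand, in the hairpin gene that RefSeq calls Mir146, and no other gene of the table overlaps that hairpin. MiR-146b-5p is at chr19:46342790-46342811 on the plus strand, in Mir146b, within the bounds of the long non-coding RNA gene Gm36493. Whether a hairpin is exonic or intronic in its overlapping gene is not given by the tables used here.

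Of the 4 miRNAs, all had a value in Pam212 and 3 had one in LY-1. The values are deposited intensities on a linear scale, and over all probes the Pam212 array spanned 0.943 to 51459 units and the LY-1 array 0.948 to 51140. The pooled median of both arrays, 2.26, was used as the floor that the brighter of a probe's values had to reach. MiR-21a-5p and miR-155-5p were past it, and both miR-146 probes were under it on every array where they had a value. An intensity depends on the probe as well as on the miRNA, so the values of different miRNAs were not set against each other as levels.

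**Figure D1:**
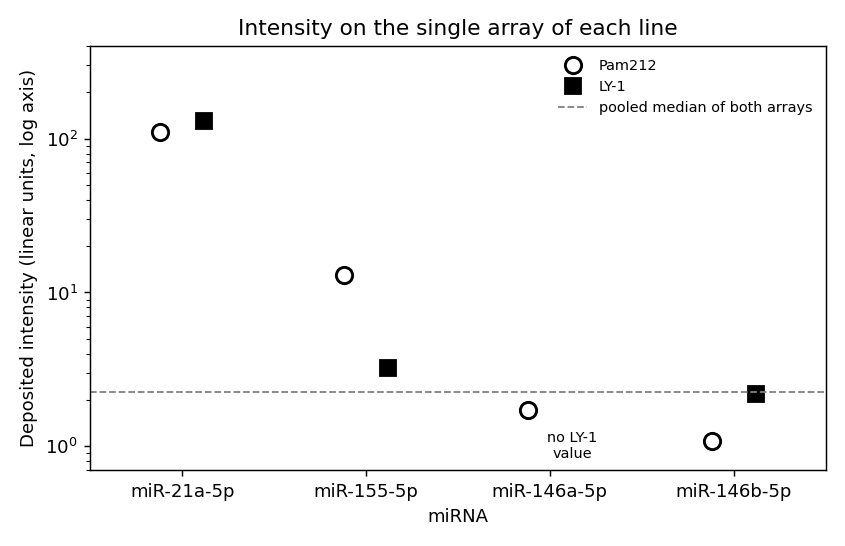
Deposited intensity of each miRNA (vertical log axis, linear intensity units) on the single array of Pam212 (open circles) and of LY-1 (filled squares); the dashed line is the pooled median of 2.26 and there are no error bars because each line has 1 array. MiR-155-5p is at 13.0 in Pam212 and 3.25 in LY-1, miR-21a-5p is at 110 and 130, and both miR-146 probes lie under the line.

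MiR-155-5p was lower in LY-1. It read 13.0 in Pam212 against 3.25 in LY-1. The log2 difference, LY-1 minus Pam212, was -2.00, or 3.99-fold lower. The Pam212 value was 5.73 times the pooled median and 13.7 times the lowest on its array. The LY-1 value was 1.44 times the pooled median and 3.43 times the lowest on its array, so it lay only a little above the floor. In order of brightness the probe was 102 of the 460 probes measured in Pam212 and 185 of the 437 measured in LY-1.

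Few probes differed as far in that direction. Of the 252 probes with both values and past the floor, 16 were lower in LY-1 by at least 2-fold, 6.35% of them, and 32 were higher by as much, 12.7%. That split followed the scaling, with 48 lower and 17 higher when the 75th percentiles of each array's measured probes were set equal, 22 and 27 after quantile normalization, and 10 and 41 when the summed intensities without the brightest probe were set equal. Of the 4 miRNAs, 2 were past the floor. Of these 2, 1 was at least 2-fold lower and 0 were at least 2-fold higher. The difference of miR-155-5p was the fourth from the lowest among the 252. The 3 probes below it had LY-1 intensities of 1.75, 1.02 and 1.36, all under the floor.

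Set against probes of like brightness, miR-155-5p also lay at the edge. The 76 other probes whose geometric mean intensity over the arrays was within 2-fold of that of miR-155-5p had a median log2 difference of 0.04, with an interquartile range from -0.38 to 0.65. Their differences ran from -2.47 to 2.93, and 1 of the 76 was as low as that of miR-155-5p. As deposited, 4 of these probes were lower in LY-1 by 2-fold or more and 13 were higher by as much. Wide differences thus occurred at this brightness in both directions, more often toward LY-1 being higher. The error of a single intensity is unknown, and the spread of these probes holds measurement error and line differences together.

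MiR-21a-5p read 110 in Pam212 and 130 in LY-1. This is a log2 difference of 0.24, or 1.18-fold higher in LY-1, well short of the 2-fold limit. The probe ranked 38 in Pam212 and 40 in LY-1, and its values were 48.6 and 57.5 times the pooled median. Of the 4 probes it was the one farthest from the dim end of the scale, where a small absolute error moves a ratio most.

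The sign of the miR-21a-5p difference depended on how the arrays were scaled. It was -0.25 when the 75th percentiles of the probes measured on each array were set equal, and -0.24 after quantile normalization, against 0.43 when the summed intensities without the brightest probe were set equal. The first of these scalings moved the median difference of all probes measured on both arrays to -0.49, and the last moved it to 0.18. Quantile normalization left this median at -0.02, although it turned the sign of miR-21a-5p. The values therefore do not give a direction for miR-21a-5p. The 38 other probes of like brightness had a median log2 difference of 0.23, and 19 of them were at or below the value of miR-21a-5p, which places it in the middle of its neighbours.

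The gap between the differences of miR-155-5p and miR-21a-5p does not depend on a scaling that multiplies a whole array by 1 factor. In the values as deposited, the log2 difference of miR-155-5p minus that of miR-21a-5p was -2.24, a 4.72-fold gap. The 2 members past the floor thus had unlike differences on these single arrays. Both are known as inducible by AP-1 or NF-κB, whose activity was not measured here. Whether the gap exceeds the spread between cultures was not tested.

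**Figure D2:**
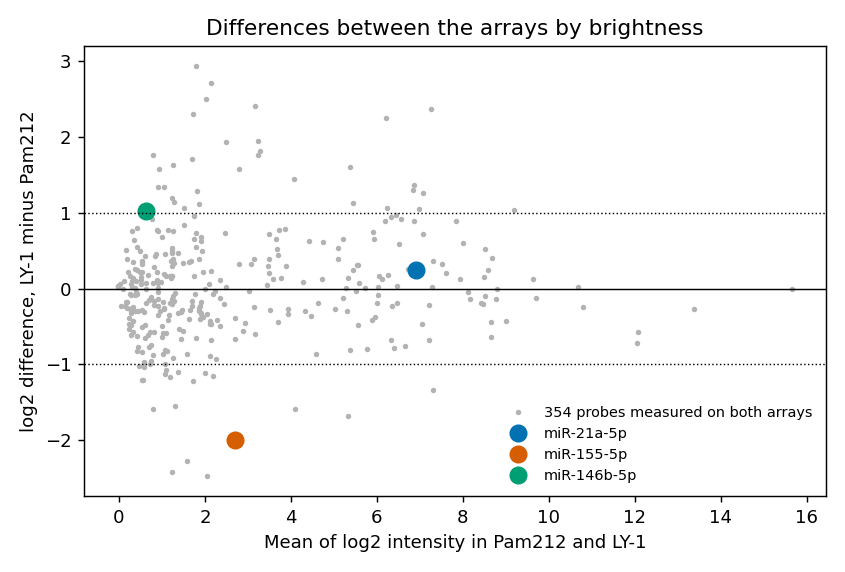
Log2 difference, LY-1 minus Pam212 (vertical axis), against the mean log2 intensity of the arrays (horizontal axis) for the 354 probes measured on both (grey), with 3 of the miRNAs in colour and dotted lines at 2-fold. MiR-155-5p lies at -2.00 among the lowest points, miR-21a-5p at 0.24 inside the cloud, and miR-146b-5p at 1.03 among the dim probes on the left; miR-146a-5p has no LY-1 value and is not drawn.

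MiR-146a-5p read 1.73 in Pam212, and its LY-1 cell was null. The Pam212 intensity was 1.83 times the lowest on that array and ranked 278 of 460, and no fold can be given. Of the 200 other probes within 1.5-fold of it in Pam212, 66 also lacked a LY-1 value, 33.0%. The remaining 134 of those probes read from 0.963 to 11.3 in LY-1, with a median of 1.65. The sources used here do not say what a null cell stands for, so this one shows neither loss nor presence of the miRNA in LY-1.

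MiR-146b-5p read 1.08 in Pam212 against 2.21 in LY-1. The log2 difference was 1.03, or 2.04-fold higher in LY-1. Both values were under the floor of 2.26, and the Pam212 value was 1.15 times the lowest on that array, so it did not enter the counts above. With no floor, the 354 probes with both values held 33 that were higher by at least 2-fold, 9.32%, and 20 that were lower by as much, 5.65%. Among the 168 other probes of like brightness, 8 had a difference as high as that of miR-146b-5p. Adding a pseudocount of 1.02, the 5th percentile of all values, brought the log2 difference down to 0.62, and setting the 75th percentiles of each array's measured probes equal brought it to 0.54, both under 2-fold. With those percentiles taken over the probes with both values, an alternative added after seeing the data, it was 0.99, just under that limit.

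The miR-146 probes, whose miRNAs are identical at 20 of 22 bases, could not be compared with each other, since miR-146a-5p has no LY-1 value. Their 3 intensities lay between 1.08 and 2.21, under the pooled median. At this brightness a value is missing often, since 87 of the 163 other probes within 1.5-fold of miR-146b-5p in Pam212 had none in LY-1, 53.4%. By contrast, 0 of the 25 other probes within 1.5-fold of miR-155-5p in Pam212, and 0 of the 17 near miR-21a-5p, lacked a LY-1 value. These windows were set on Pam212 values only, so they do not show how securely a LY-1 value as dim as 3.25 is measured. Those 25 probes had a median of 13.6 in LY-1 and ran from 1.75 to 27.6, and 1 of them was at or below the 3.25 of miR-155-5p.

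**Figure D3:**
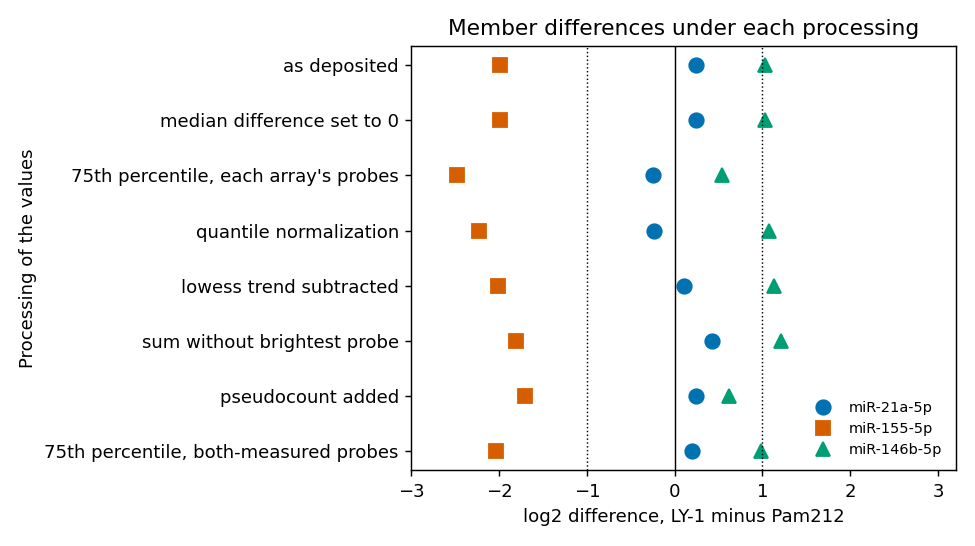
Log2 difference, LY-1 minus Pam212 (horizontal axis), of miR-21a-5p (circles), miR-155-5p (squares) and miR-146b-5p (triangles) under each processing of the intensities (vertical axis), with dotted lines at 2-fold. MiR-155-5p stays from -2.49 to -1.71, miR-21a-5p falls on either side of 0 from -0.25 to 0.43, and miR-146b-5p runs from 0.54 to 1.21.

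The probes with the most similar pair of intensities differed in how close they came. The nearest to miR-21a-5p, MIMAT0000529, read 95.9 in Pam212 and 114 in LY-1, at a distance of 0.27 in the plane of the log2 intensities. The nearest to miR-155-5p, MIMAT0003495, read 6.83 and 3.08 and was 0.93 away, so no probe had a closely matching pair. The nearest to miR-146b-5p read 1.02 and 2.00, at a distance of 0.17, in the crowded dim end of the array. These likenesses rest on 2 arrays.

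Other miRNAs inducible by NF-κB or AP-1, the opposite arms of the same hairpins and miRNA markers of keratinocytes, blood cells and fibroblasts were not analysed here, because the files and tables used do not pair the other accessions with names. The labelled keratinocyte identity was therefore not checked against markers. Nor can fewer cells making a miRNA be told apart from less of it per cell in these bulk RNA samples.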

How the data were processed

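Per the labels' protocols, total RNA of Pam212 and LY-1 (1 plate each) was isolated on miRNA-retaining columns, and Exiqon's LNA array labelling kit attached the dye Hy5. The values are deposited intensities, linear in scale, with 1 number for a probe on each array. Scanning, background subtraction, combining of the duplicate spots, scaling and the meaning of null cells are not given in the sources used here. No depth or signal over background is known, and 1 array per line limits the precision.

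Differences are log2 LY-1 minus log2 Pam212 of the deposited intensities, with no pseudocount and no test. A probe was counted at 2-fold where its brighter value reached the pooled median. Alternatives were 5 scalings (lowess span 0.5), a pseudocount, other floors and thresholds of 1.5-fold and 3-fold; 3 more were chosen after seeing the data. The text names all 4 miRNAs, those sharing a seed, and probes among the 3 nearest to each, of which 2 are identified. The miRNA names of the 4 accessions came with their selection. The members and lists were chosen with earlier results of these data known. Python 3.11.15, numpy 2.4.6, pandas 2.3.3, statsmodels 0.14.6 and matplotlib 3.10.9 were used. The counting and scaling steps were tested on the Pam212 values multiplied by set factors, without noise or null cells. That check does not show how they behave where noise or null cells are present.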

Additional observations from a re-analysis of the deposited data

How the results depend on the processing

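For miR-155-5p all 7 alternative scalings or pseudocounts left a difference more than 2-fold lower in LY-1. It was -2.49 with the 75th percentiles of each array's probes set equal, -2.23 after quantile normalization, -1.81 with the summed intensities without the brightest probe set equal, and -1.71 with the pseudocount; the other 3 moved it by under 0.1. MiR-21a-5p stood at -0.25, -0.24 and 0.43 under the first 3 of these and at 0.10 with the lowess trend subtracted, so its direction turned under 2 of 7. MiR-146b-5p stood at 0.54, 1.21 and 0.62 with the 75th percentiles, the summed intensities and the pseudocount. The scalings by 75th percentile and by summed intensity multiply a whole array by 1 factor, so each moves all members by the same log2 amount. Why the arrays differ in these measures was not tested, nor was the cause of the other shifts. MiR-146a-5p has no difference to recompute. The counts of probes at least 2-fold higher and lower, 32 and 16 as deposited, became 17 and 48 with the 75th percentiles of each array's probes set equal, which rest on 460 and 437 probes. Taken over the probes measured on both arrays, a choice added after seeing the data, they were 31 and 18. Lower calls numbered 10 with the summed intensities and 8 with the pseudocount, against 41 and 25 higher, and quantile normalization gave 27 and 22. The floor at the pooled 75th percentile, 11.0, left 17 and 4 of 121 probes. Both values at the floor, also added after seeing the data, left 18 and 6 of 186. The counts are fewer by construction, and the second floor also drops wide differences that have a dim value. The thresholds of 1.5-fold and 3-fold gave 63 and 43, and 15 and 7. No paired analysis was possible because each line has 1 array, and leaving out a replicate was not possible for the same reason.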
